A study of Homo sapiens with 16 samples.

Results

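The genes described here are 39 genes of the oxidative stress response, measured in the established human colon carcinoma line HCT116: the transcription factor NRF2 (gene symbol NFE2L2) with its partners and known targets, both ferritin subunits, and the antioxidant enzymes. They were chosen by gene name from knowledge of the pathway, with earlier results of these data known, and all 39 were found among the 63653 genes listed. RNA was sequenced from 4 groups of 2 libraries. The first group was treated with 0.5 µM BIX 01294, which inhibits G9a, a histone methyltransferase encoded by EHMT2, for 72 h. The second was transfected with 10 nM siRNA (small interfering RNA) targeting G9a, carried by Lipofectamine RNAiMAX, for 72 h. The third is the control of the siRNA and the fourth is the control of the inhibitor. All 4 groups are the same cell line with no engineered allele named, and the sources used here do not give what the control cells received (a vehicle, a non-targeting siRNA, the transfection reagent). The series' design names 2 biological and 2 technical replicates, without saying which libraries are separate cultures. The p-values here cover only the spread between libraries, part of which may be technical.

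NRF2 is held low in resting cells by KEAP1, which binds it and passes it to a ubiquitin ligase for destruction. Oxidants and electrophiles modify KEAP1, NRF2 builds up, pairs with a small MAF protein such as MAFG and binds the antioxidant response element in the promoters of its targets. The targets make and use glutathione, reduce peroxides and quinones, export conjugates, degrade heme and store the released iron in ferritin. Many colon cancer lines keep part of this program on without added stress. Ferritin is also controlled after transcription: when iron is low, iron regulatory proteins bind a hairpin near the 5′ end of its mRNA and block translation.

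These 5 sequences are shown because they are the promoter stretches of members with the antioxidant response element core, from RefSeq promoter sequences on build GRCh38.p14, which is not the build of the expression files. Each line is 25 bases read 5′ to 3′ on the strand that holds the core, with the letters that match TGACNNNGC in capitals.
GSTP1: cggcgccgTGACTCAGCactggggc
GCLM: gaagacaaTGACTAAGCagaaatcg
GSTO1: cggagggaTGACTGAGCatttataa
EPHX1: agattggcTGACTTGGCaggactgt
KEAP1: ggtcaccaTGACTAAGCagagccgg
The GSTP1 stretch is chr11:67583738-67583762 on the plus strand, with the core 66 bases before the transcript start. The GCLM stretch is chr1:93909448-93909472 on the plus strand, opposite to the gene, with the core 34 bases before the start. The GSTO1 stretch is chr10:104254658-104254682 on the plus strand, 226 bases before the start. The EPHX1 stretch is chr1:225825268-225825292 on the plus strand, 78 bases before 1 of its 3 listed starts. The KEAP1 stretch is chr19:10502786-10502810 on the plus strand, opposite to the gene, 31 bases before 1 of its listed starts. GSTO1 and KEAP1 each have a further match, and CBR1 and MGST1 have 1 each. The MGST1 match is at base 31 after 1 of its listed starts. The core was searched on both strands in windows from 250 bases before to 50 bases after each start. It was found in 7 of 40 windows of the 28 members that the table holds (17.5%), against 4687 of all 35116 windows (13.35%). With the inhibitor against its own control, GSTO1 was higher, EPHX1, KEAP1 and MGST1 were lower, GSTP1 and GCLM were not called and CBR1 was not tested. None of them was called with the inhibitor against the siRNA controls. A match describes letters in a window and is not a measured binding site.

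The other regulatory sequence shown is the ferritin hairpin, because the strongest difference among the members is in a ferritin mRNA and the hairpin is what both subunits share. Both stretches are 30 bases of the 5′ end of the GENCODE 29 transcripts (GRCh38), in the sense of the mRNA, written with T, and the capitals mark the CAGTGN loop.
FTH1: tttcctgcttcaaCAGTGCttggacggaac
FTL: tctcttgcttcaaCAGTGTttggacggaac
The FTH1 stretch is bases 58 to 87 of transcript FTH1-201 and the FTL stretch is bases 34 to 63 of FTL-201. The sequences are alike at 27 of 30 bases.

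The values are FPKM, fragment counts divided by transcript length and by the library's mapped total, averaged over the 2 sequencing runs of a library and scaled so that the typical gene has the same level in all libraries. Over all 12846 genes tested, the 2 libraries of the inhibitor control were unlike the rest: Pearson's r was 0.993 between these 2, 0.957 to 0.974 between them and the other 6 libraries, and 0.985 to 0.995 among the other 6. The members' differences from the inhibitor controls are therefore given beside those from the siRNA controls. No inhibitor dose is given for the siRNA cells or the siRNA controls either. Against the inhibitor controls, an effect of the inhibitor cannot be told apart from whatever else sets these 2 libraries apart. The siRNA label was borne out by EHMT2 itself, at 4.68 and 4.54 FPKM in siRNA cells against 15.9 and 17.8 FPKM in siRNA controls (log2 difference -1.67, adjusted p = 0.000268). EHMT2 was at 19.7 and 18.9 FPKM in inhibitor cells against 24.7 and 21.0 FPKM in inhibitor controls (-0.23, adjusted p = 0.0827), and 0.19 above the siRNA controls on the log2 scale (adjusted p = 0.439). The epithelial markers KRT19, KRT8, KRT18 and EPCAM were abundant, with means of 232, 193, 169 and 81.5 FPKM, while CDH1 (1.03), ELF3 (0.738) and VIL1 (0.233) were low. The summed level of 11 epithelial markers was 726 and 743 FPKM in inhibitor cells, 681 and 668 in siRNA cells, 663 and 663 in siRNA controls, and 783 and 790 in inhibitor controls. Of its 9 tested markers 1 was called higher and 3 lower with the inhibitor against its own control (44.4%, against 36.5% of all genes). None was called against the siRNA controls, with 4 at an unadjusted p under 0.05, as were 1599 of all 12846 genes. The part of these marker differences in the members' results was not tested. The labels also name a foreskin fibroblast line, but the summed level of 10 fibroblast markers was 1.75 to 3.76 FPKM, with FAP and LUM listed at 0.

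The members differed widely in level. FTL, the ferritin light chain that helps deposit iron in the ferritin shell, was the most abundant, with a mean of 1569 FPKM over the 8 libraries. PRDX1, the main cytosolic peroxiredoxin, followed at 914 FPKM, and GSTP1, a glutathione S-transferase, at 417 FPKM. The median of the 33 members with a mean of at least 1 FPKM was 39.7 FPKM, against 8.48 FPKM for all genes tested, and 12 of the 33 were at 100 FPKM or more. NFE2L2 itself had a mean of 17.4 FPKM. At the low end were HMOX1 at 7.23 FPKM, EPHX1 at 6.86, ABCC2 at 6.61, ABCC1 at 5.94 and OSGIN1 at 3.46 FPKM.

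The remaining 6 members were under 1 FPKM on average and entered no test. CBR3, a carbonyl reductase, was just under that limit, at 0.893 ± 0.105 FPKM in inhibitor cells, 1.33 ± 0.161 in siRNA cells, 1.202 ± 0.120 in siRNA controls and 0.518 ± 0.0905 in inhibitor controls (SD, n = 2 each). OSGIN1 was the member nearest above it. AKR1B10, an aldo-keto reductase that reduces retinal and other carbonyls, was at 0.514 and 0.392 FPKM in inhibitor cells, 1.02 and 0.984 in siRNA cells, 0.400 and 0.195 in siRNA controls, and 0.218 and 0.651 in inhibitor controls. The deposited lower bound for AKR1B10 was 0 in 12 of 16 runs, and a library's second run was 0.237 to 3.28 times its first. The gene was too low to be tested here. AKR1C1, AKR1C2 and AKR1C3, aldo-keto reductases that reduce steroids and are strong NRF2 targets in other human cells, averaged 0.240, 0.126 and 0.141 FPKM. The lower bound that the deposited files give for each of these 3 was 0 in 16 of 16 runs, and their sequences are so alike that reads may have been split among them. CBR1 was listed at 0 in 15 of 16 runs. Its 3226-base locus lies wholly inside that of SETD4, which was at 13.2 FPKM, and the sources used here do not give how reads shared by overlapping genes were assigned.

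**Figure D1:**
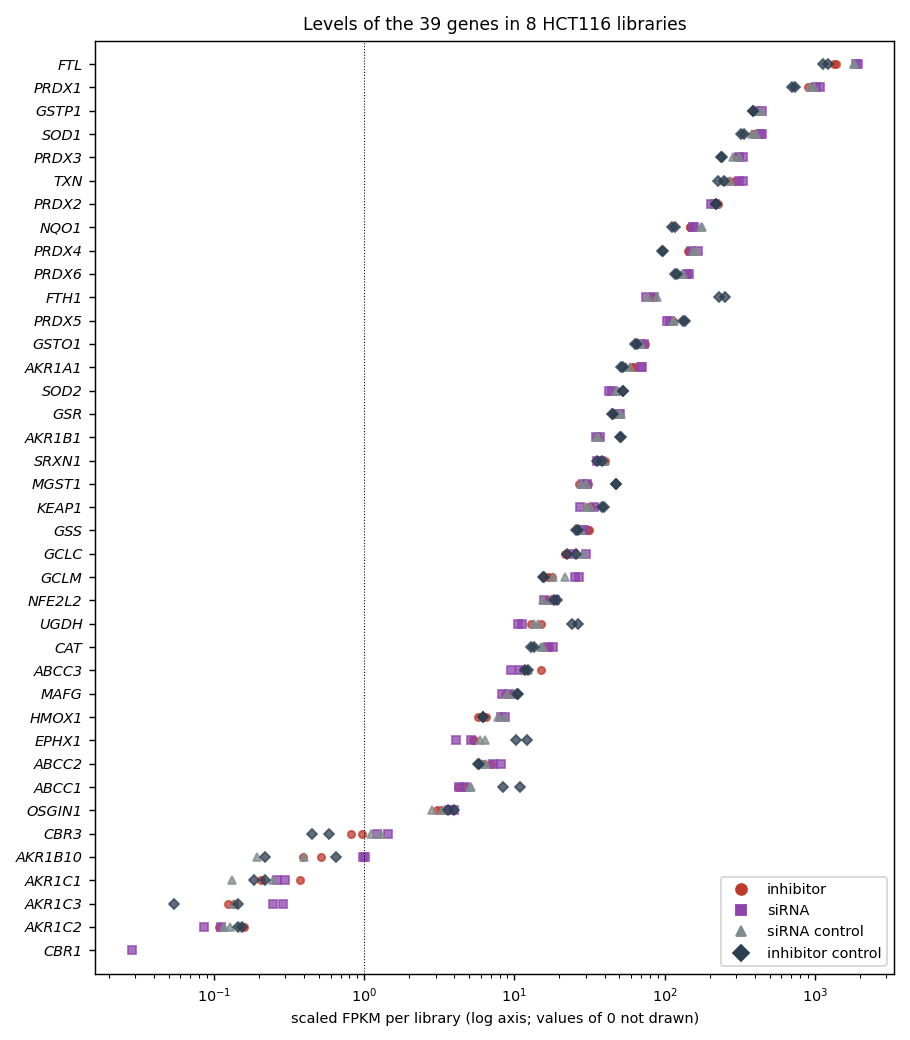
Level of each of the 39 genes in each of the 8 libraries, in scaled FPKM on a log axis, with 1 marker per library and 1 marker shape per group; the dotted line marks the 1 FPKM limit for testing. FTL is highest and FTH1 is the one abundant gene whose 2 inhibitor control libraries (251 and 232 FPKM) lie far to the right of the other 6 (75.6 to 89.0 FPKM).

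The first comparison asked how the genes stood after 72 h of the inhibitor. Against the inhibitor controls, FTH1, UGDH, MGST1, EPHX1 and ABCC1 fell and PRDX4, NQO1 and most peroxiredoxins rose. Of the 33 members, 20 were called at an adjusted p under 0.05, 12 higher and 8 lower, where 36.5% of all genes were called (17.7% higher, 18.7% lower). The test was limma's moderated test on log2(scaled FPKM + 1), with Benjamini-Hochberg adjustment over all 12846 genes. The share of members called was 60.6%, and their median log2 difference was 0.085, against 0.009 for all genes. Abundant genes were called more often in general: of genes at 100 FPKM or more 71.8% were called, and so were 10 of the 12 members at that level. With the FPKM values as deposited, without scaling, 8 members were called, 2 higher (NQO1 and PRDX4) and 6 lower (FTH1, UGDH, MGST1, AKR1B1, EPHX1 and ABCC1).

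Against the siRNA controls, none of the 33 members was called with the inhibitor, where 0.0389% of all genes were called (0.0311% higher, 0.00778% lower). At an unadjusted p under 0.05 there were 6 members, and 1599 of all 12846 genes, and limma's robust variant called 1, FTL. The siRNA controls themselves differed from the inhibitor controls at 19 members, 11 higher and 8 lower, where 38.3% of all genes were called (19.2% higher, 19% lower). Of genes at 100 FPKM or more 68% were called, and so were 10 of the 12 members at that level. Without scaling 11 members differed between the control groups, 3 higher and 8 lower. The median of all genes was then at -0.11 on the log2 scale. These comparisons share control libraries, so their calls are not independent of each other.

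**Figure D2:**
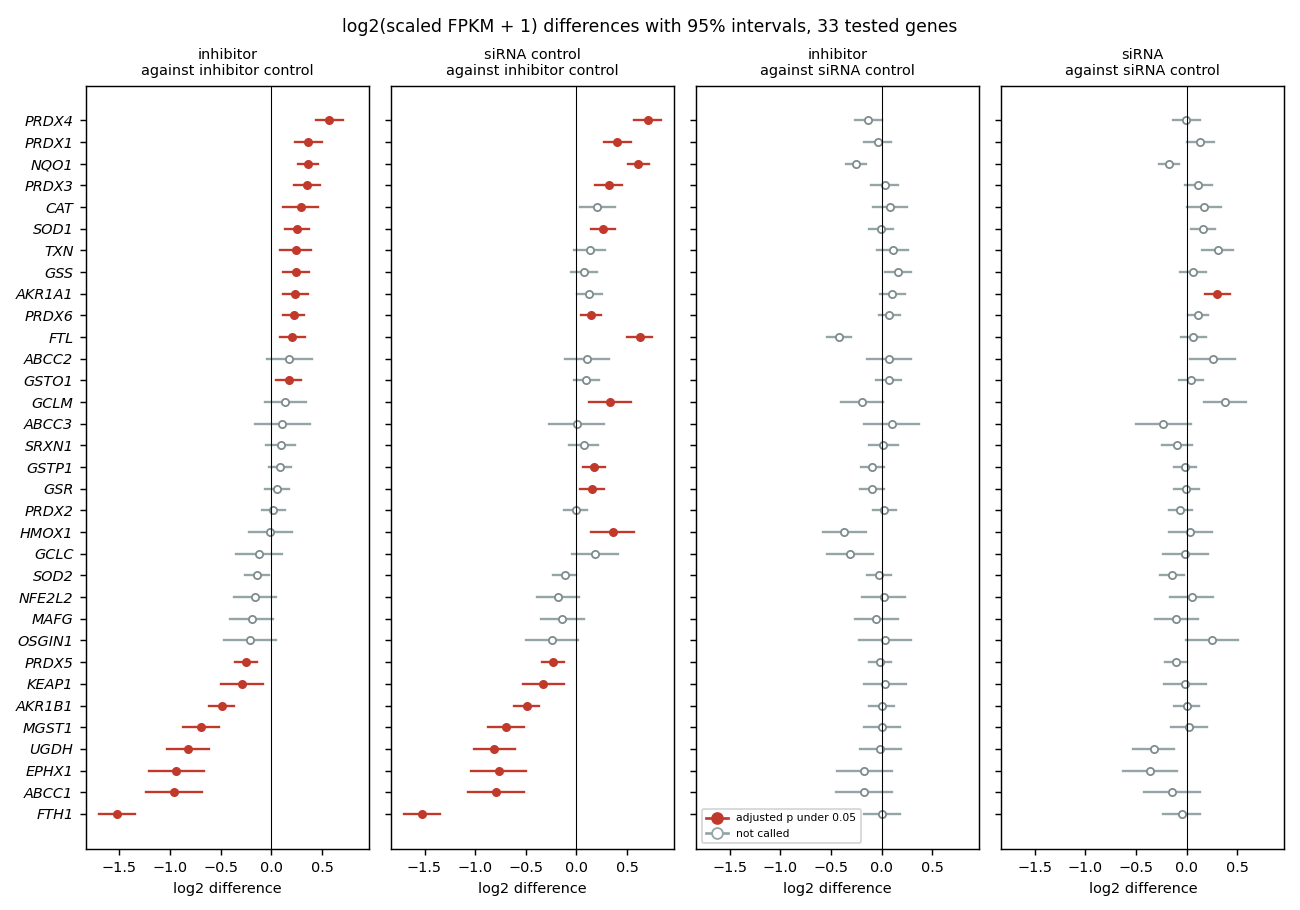
Log2 difference of scaled FPKM + 1 (points) with 95% intervals (bars) for the 33 tested genes in 4 comparisons; filled red points have an adjusted p under 0.05, open points do not. FTH1 is lowest in both comparisons against the inhibitor controls (-1.52 in each) and lies at 0.0022 for the inhibitor against the siRNA controls.

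The 3 iron and heme genes differed most from each other. FTH1, the ferritin heavy chain that oxidizes iron for storage, had 84.1 and 82.8 FPKM in inhibitor cells, 75.6 and 85.6 in siRNA cells, 78.1 and 89.0 in siRNA controls, and 251 and 232 in inhibitor controls. The inhibitor control libraries were both far above the other 6, which overlapped. FTH1 fell to 0.345 times its inhibitor control mean in inhibitor cells (log2 difference -1.52 ± 0.08 SE, adjusted p = 1.045e-05 by limma). The call held in all 14 alternative settings tried, with log2 differences from -1.58 to -1.46. In bulk RNA, fewer cells that make a transcript and less transcript per cell cannot be told apart. The same difference taken against the siRNA controls was 0.0022, with a 95% interval of -0.18 to 0.18, and the siRNA controls were as far below the inhibitor controls (-1.52) as the inhibitor cells were. The 29 named FTH1 pseudogenes summed to 4.45 to 9.11 FPKM in each library, and how reads shared with the gene were assigned is not stated.

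FTL had 1387 and 1339 FPKM in inhibitor cells, 1942 and 1874 in siRNA cells, 1833 and 1811 in siRNA controls, and 1224.5 and 1139 in inhibitor controls. The inhibitor libraries lay between the groups, above their own controls and below both siRNA groups. FTL was called higher against the inhibitor controls (0.21 ± 0.05 SE, adjusted p = 0.0159). Relative to the siRNA controls FTL was at -0.42, with an interval of -0.54 to -0.30 and an adjusted p of 0.0507. The siRNA controls were higher than the inhibitor controls by 0.62 (adjusted p = 7.775e-05). The call against the inhibitor controls was kept in 9 of 14 settings. It was lost with no filter, without scaling, with quantile normalization, and without inhibitor replicate 1 or inhibitor control replicate 2. The 16 named FTL pseudogenes summed to 22.9 and 28.8 FPKM in inhibitor cells, 36.4 and 33.4 in siRNA cells, 37.4 and 45.8 in siRNA controls, and 17.7 and 9.56 in inhibitor controls, and how reads shared with the gene were assigned is not stated.

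The ratio of FTL to FTH1, both per length, was 16.5 and 16.2 in inhibitor cells, 25.7 and 21.9 in siRNA cells, 23.5 and 20.4 in siRNA controls, and 4.87 and 4.91 in inhibitor controls. HMOX1, the heme oxygenase that frees iron from heme, had 6.49 and 5.77 FPKM in inhibitor cells, 8.19 and 8.66 in siRNA cells, 7.82 and 8.55 in siRNA controls, and 6.19 and 6.15 in inhibitor controls. The inhibitor libraries overlapped their own controls (-0.01, adjusted p = 0.943) and were both below the siRNA controls (-0.37, adjusted p = 0.199). The control groups differed at HMOX1 by 0.36 (adjusted p = 0.015), higher in the siRNA controls, a call kept in 9 of 14 settings. It was lost without scaling, with the second run alone, and without siRNA control replicate 2 or either inhibitor control library.

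**Figure D3:**
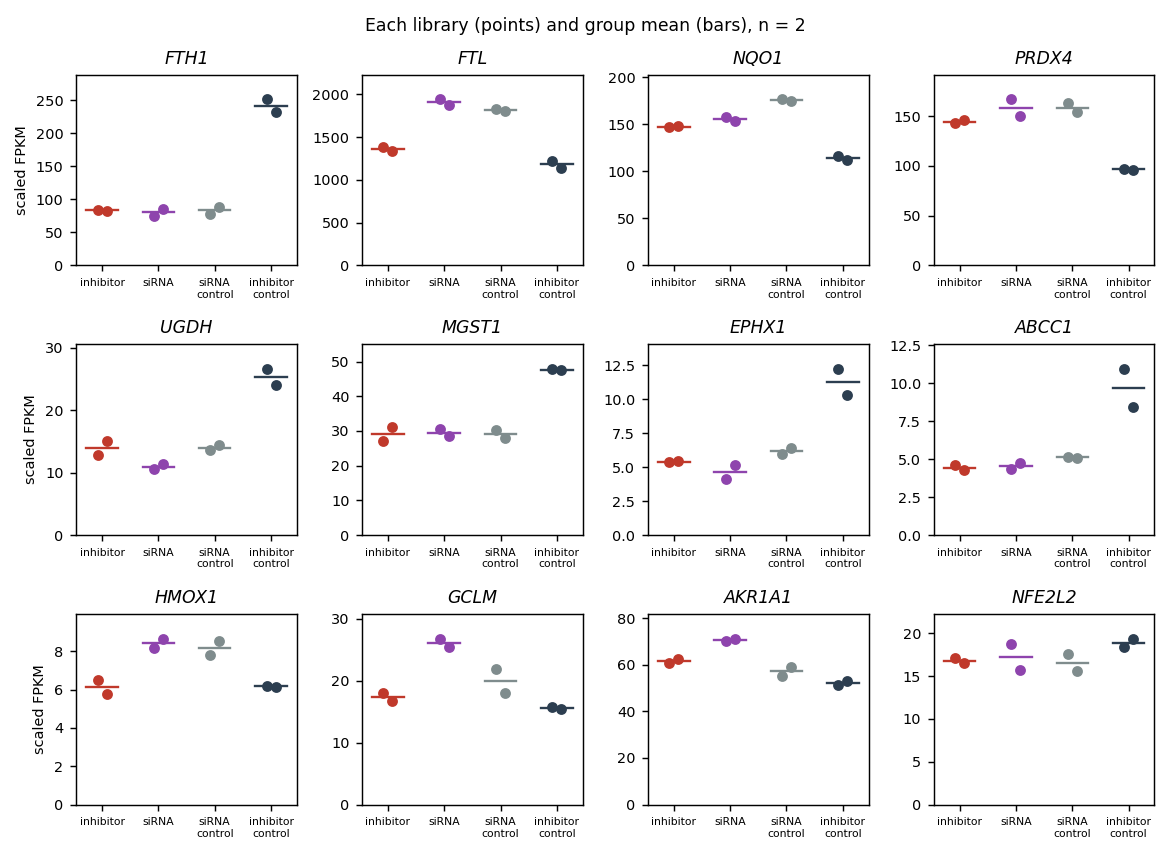
Scaled FPKM of 12 genes in every library (points) with the mean of each group (bars, n = 2), on axes that start at 0. In the FTH1, UGDH, MGST1, EPHX1 and ABCC1 panels the inhibitor control libraries lie above all others, and in the NQO1 and PRDX4 panels they lie below.

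Of the 3 regulators 1 was called with the inhibitor against its own control (33.3%, against 36.5% of all genes). None was called with the siRNA, where 2.13% of all genes were called. NFE2L2 had 17.1 and 16.5 FPKM in inhibitor cells, 18.7 and 15.7 in siRNA cells, 17.5 and 15.6 in siRNA controls, and 18.4 and 19.4 in inhibitor controls. It was called in no comparison: its log2 difference was -0.16 with the inhibitor against its own control (interval -0.37 to 0.05) and 0.05 with the siRNA (-0.16 to 0.26). Its locus overlaps AC074286.1, at 1.82 FPKM, and the end of AGPS. KEAP1 had 30.8 and 32.4 FPKM in inhibitor cells, 27.4 and 33.9 in siRNA cells, 31.7 and 29.995 in siRNA controls, and 38.4 and 39.4 in inhibitor controls. It fell with the inhibitor against its own control by 0.29 on the log2 scale (adjusted p = 0.033), a call kept in 6 of 14 settings. The KEAP1 call was lost when any 1 of these 4 libraries was left out, and without scaling, with no filter, with the first run alone or with short genes kept. With the siRNA controls in place of its own, KEAP1 was at 0.03 (interval -0.17 to 0.24). MAFG, the small MAF partner, was at -0.19 against the inhibitor controls (adjusted p = 0.142) and -0.05 against the siRNA controls, and its locus overlaps that of SIRT7.

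Of the 7 glutathione genes 2 rose, 1 fell and 4 were not called with the inhibitor against its own control (42.9% called, against 36.5% of all genes). MGST1, a microsomal glutathione S-transferase of the endoplasmic reticulum and mitochondria, had 27.0 and 31.2 FPKM in inhibitor cells, 30.5 and 28.6 in siRNA cells, 30.2 and 27.8 in siRNA controls, and 47.9 and 47.5 in inhibitor controls. The inhibitor controls were above the other 6, which overlapped. It fell by 0.70 on the log2 scale (SE 0.08, adjusted p = 0.00029), and relative to the siRNA controls MGST1 was at 0.002 (interval -0.17 to 0.18). GSS, which adds glycine in the last step of glutathione synthesis, rose by 0.24, and GSTO1, an omega-class transferase, by 0.17, and relative to the siRNA controls they were at 0.17 and 0.07. GSTO1 kept its call in 6 of 14 settings and lost it when any 1 of the 4 libraries was left out. GSS kept its call in 10 of 14 settings, and lost it among others without inhibitor replicate 2 or inhibitor control replicate 1.

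The genes of the rate-limiting step of glutathione synthesis were not called with either treatment. GCLC, the catalytic subunit of glutamate-cysteine ligase, was at -0.12 against the inhibitor controls (adjusted p = 0.365) and -0.31 against the siRNA controls (interval -0.53 to -0.08, adjusted p = 0.284). GCLM, its modifier subunit and a textbook NRF2 target, had 18.0 and 16.7 FPKM in inhibitor cells, 26.8 and 25.5 in siRNA cells, 21.9 and 18.0 in siRNA controls, and 15.8 and 15.5 in inhibitor controls. Its inhibitor libraries were above their own controls (0.14, adjusted p = 0.27) and below the siRNA controls (-0.19, adjusted p = 0.428). GSTP1 had 401 and 421 FPKM in inhibitor cells, 447 and 419 in siRNA cells, 440 and 435 in siRNA controls, and 386 and 389 in inhibitor controls. GSTP1 was not called with either treatment. It was 0.17 higher in siRNA controls than in inhibitor controls (adjusted p = 0.0221), a call kept in 7 of 14 settings and lost when any 1 of these 4 control libraries was left out or without scaling. GSR, which regenerates reduced glutathione, was at 0.06 against the inhibitor controls and -0.09 against the siRNA controls.

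The thioredoxin and peroxiredoxin genes gave 5 of the 12 higher calls, with 1 called lower and 2 not called. This is 75% called, against 36.5% of all genes and 71.8% of genes at 100 FPKM or more. PRDX4, the peroxiredoxin of the endoplasmic reticulum, had 143 and 146 FPKM in inhibitor cells, 167 and 150 in siRNA cells, 163 and 154 in siRNA controls, and 97.1 and 96.3 in inhibitor controls. The inhibitor controls were the lowest and the other 3 groups lay close together. It rose by 0.57 with the inhibitor against its own control (SE 0.06, adjusted p = 0.000204), and relative to the siRNA controls PRDX4 was at -0.13 (adjusted p = 0.401). PRDX1 had 901 and 959 FPKM in inhibitor cells, 1086 and 1016 in siRNA cells, 983 and 927 in siRNA controls, and 704 and 740 in inhibitor controls. PRDX1 rose by 0.36 and PRDX3, the mitochondrial peroxiredoxin, by 0.35, while PRDX6, which uses glutathione, rose by 0.22 and TXN, thioredoxin itself, by 0.24. PRDX5, found in mitochondria, peroxisomes and cytosol, fell by 0.25 (adjusted p = 0.00398). PRDX2, whose locus is wholly overlapped by HOOK2, was at 0.02, and SRXN1, the sulfiredoxin that repairs overoxidized peroxiredoxins and is a direct NRF2 target, was at 0.09. These 8 genes lay between -0.13 and 0.11 against the siRNA controls.

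The calls of PRDX1, PRDX3, PRDX5, PRDX6 and TXN against the inhibitor controls were lost without the scaling, and none of them changed sign. TXN kept its call in 9 of 14 settings, and also lost it, among others, without inhibitor replicate 2 or inhibitor control replicate 1. Its 7 named pseudogenes summed to 15.3 to 28.1 FPKM per library, against 228 to 334 FPKM for TXN. SOD1, the cytosolic copper-zinc superoxide dismutase, rose by 0.26 (adjusted p = 0.00514), and CAT, the peroxisomal catalase, by 0.29 (adjusted p = 0.0157). The CAT call was kept in 10 of 14 settings, and lost among others without inhibitor replicate 2 or inhibitor control replicate 1. SOD2, the mitochondrial manganese enzyme, was at -0.14 (adjusted p = 0.0575). Its locus overlaps WTAP, at 43.6 FPKM, and ACAT2, at 71.5 FPKM, so its level is uncertain. Relative to the siRNA controls SOD1 was at -0.0018, CAT at 0.08 and SOD2 at -0.03.

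Of the 6 tested quinone, carbonyl and conjugation genes 2 rose, 3 fell and 1 was not called with the inhibitor against its own control. This is 83.3% called, against 36.5% of all genes. By level, 23.1% of all genes at 1 to 10 FPKM and 71.8% at 100 FPKM or more were called. Between the control groups 66.7% of these 6 were called, against 38.3% of all genes. NQO1, the quinone reductase most often used as a readout of NRF2, had 147 and 148 FPKM in inhibitor cells, 158 and 154 in siRNA cells, 176 and 175 in siRNA controls, and 117 and 112 in inhibitor controls. No 2 groups overlapped: the inhibitor cells lay above their own controls and below both siRNA groups. NQO1 rose by 0.36 against its own control (SE 0.04, adjusted p = 0.000474) and was at -0.25 against the siRNA controls (interval -0.35 to -0.15, adjusted p = 0.108). The control groups differed at NQO1 by 0.61, higher in the siRNA controls (adjusted p = 3.544e-05), which is more than either treatment's difference from its own control.

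UGDH, which makes the UDP-glucuronic acid used to conjugate drugs and steroids, had 12.8 and 15.0 FPKM in inhibitor cells, 10.6 and 11.3 in siRNA cells, 13.6 and 14.4 in siRNA controls, and 26.6 and 24.1 in inhibitor controls. It fell by 0.82 against the inhibitor controls (SE 0.09, adjusted p = 0.000271) and was at -0.01 against the siRNA controls. EPHX1, the microsomal epoxide hydrolase, had 5.34 and 5.42 FPKM in inhibitor cells, 4.09 and 5.13 in siRNA cells, 5.95 and 6.41 in siRNA controls, and 12.2 and 10.3 in inhibitor controls. It fell by 0.94 against its own control (SE 0.12, adjusted p = 0.000535) and was at -0.17 against the siRNA controls (interval -0.44 to 0.10). For both genes the inhibitor controls were above the other 6 libraries. AKR1B1, the aldose reductase, fell by 0.49 (adjusted p = 0.000294) and AKR1A1, an aldehyde reductase, rose by 0.23 (adjusted p = 0.0098). The AKR1A1 call was kept in 10 of 14 settings, and lost among others without inhibitor replicate 2 or inhibitor control replicate 1. Against the siRNA controls AKR1B1 was at 0.0038 and AKR1A1 at 0.11. OSGIN1, an oxidative stress-induced growth inhibitor, was at -0.21 against its own control (adjusted p = 0.185) and 0.03 against the siRNA controls.

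Of the 3 exporters of glutathione and glucuronide conjugates 1 was called with the inhibitor against its own control (33.3%, against 36.5% of all genes). ABCC1 had 4.63 and 4.25 FPKM in inhibitor cells, 4.32 and 4.73 in siRNA cells, 5.15 and 5.09 in siRNA controls, and 10.9 and 8.43 in inhibitor controls. The inhibitor controls were above all others. ABCC1 fell by 0.96 against the inhibitor controls (SE 0.12, adjusted p = 0.000535) and was at -0.17 against the siRNA controls (interval -0.45 to 0.11). ABCC2 was at 0.18 and ABCC3 at 0.11 against the inhibitor controls, with adjusted p-values of 0.187 and 0.525, and at 0.07 and 0.10 against the siRNA controls.

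**Figure D4:**
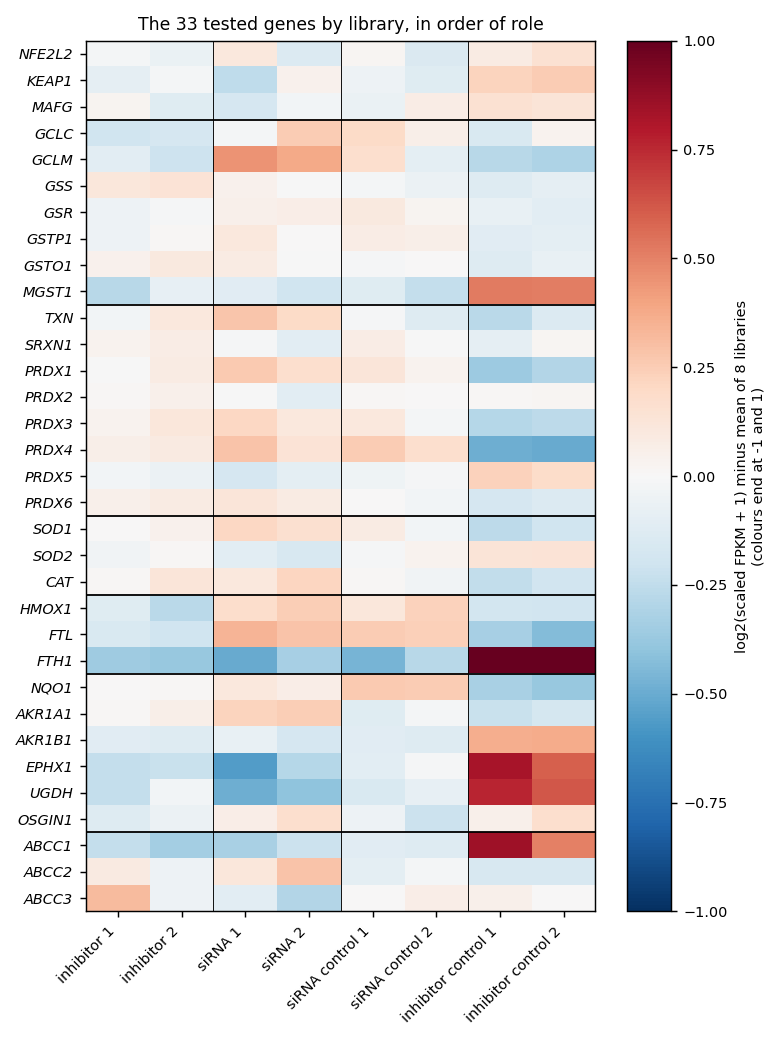
Log2(scaled FPKM + 1) of the 33 tested genes in each library minus the gene's mean over the 8 libraries, with genes in order of role and colours ending at -1 and 1. The 2 inhibitor control columns differ from the other 6, with FTH1, EPHX1, UGDH, ABCC1 and MGST1 above and PRDX4 and NQO1 below their means. FTL is below its mean in the inhibitor control columns and in the inhibitor columns.

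The second comparison asked how the genes stood after knockdown of G9a. With the siRNA 1 of the 33 members was called, where 2.13% of all genes were called (0.802% higher, 1.32% lower), and 12 members had an unadjusted p under 0.05, as did 2670 of all 12846 genes. The called gene was AKR1A1, with 60.6 and 62.6 FPKM in inhibitor cells, 70.3 and 71.2 in siRNA cells, 55.1 and 59.1 in siRNA controls, and 51.2 and 53.1 in inhibitor controls. Both treated groups lay above both control groups. AKR1A1 rose by 0.31 with the siRNA (SE 0.05, adjusted p = 0.0358), a call kept in 3 of 14 alternative settings, with adjusted p-values from 0.0304 to 0.271. The members' median log2 difference was 0.003, against -0.01 for all genes.

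The next genes by p were not called. TXN was at 0.31 (adjusted p = 0.0546) and GCLM at 0.38 (0.0677), in each case with both siRNA libraries above both siRNA controls. NQO1 was at -0.17 (0.079), UGDH at -0.33 (0.0905) and EPHX1 at -0.36 (0.135), with both siRNA libraries below both controls. Both ferritin subunits were near 0, with FTH1 at -0.05 (interval -0.23 to 0.13) and FTL at 0.07 (-0.05 to 0.19). HMOX1 was at 0.04 (-0.17 to 0.25), SRXN1 at -0.09 and PRDX4 at -0.0011. The tested members not named in this comparison lay between -0.23 and 0.26.

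The third comparison tested whether the treatments differed in their effect, each against its own control. The difference was called at 7 of 33 members, 2 higher and 5 lower, where 11.8% of all genes were called (5.16% higher, 6.67% lower). Of genes at 100 FPKM or more 26.7% were called, and so were 3 of the 12 members at that level. NQO1 differed by 0.53, with 0.36 for the inhibitor and -0.17 for the siRNA, and PRDX4 by 0.57. FTH1, ABCC1, MGST1, UGDH and AKR1B1 differed by -1.47, -0.82, -0.72, -0.50 and -0.49. Of 17 alternative settings the difference was called in 17 for FTH1 and NQO1, 16 for PRDX4 and MGST1, 15 for AKR1B1, 11 for ABCC1 and 5 for UGDH. UGDH lost its call with the replicate block, without scaling and without each library other than inhibitor replicate 2, and ABCC1 without either inhibitor library, siRNA replicate 2 or inhibitor control replicate 1. Each of these 7 genes was also called between the control groups, and the difference includes the gap between the controls. EPHX1 was at -0.58 (adjusted p = 0.0575) and AKR1A1, the gene called with both treatments, at -0.07 (interval -0.25 to 0.10). Without the scaling 5 members were called, 2 higher and 3 lower.

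Other genes of thiol, heme and iron metabolism were read from a list of 60 genes, of which 53 could be tested. With the inhibitor against its own control 13 rose, 9 fell and 31 were not called (41.5% called, against 36.5% of all genes), with a median of 0.083 (0.009 for all genes). The 6 with the smallest p were PCBP1, an RNA-binding protein that also delivers iron to ferritin (-2.05), TXN2, the mitochondrial thioredoxin (-1.87), PGD of the pentose phosphate pathway, which makes NADPH (-1.34), NFE2L1, a relative of NRF2 (-0.66), TKT, transketolase (-0.48), and NCOA4, the receptor that takes ferritin to lysosomes (0.45). PCBP1 had 5.06 and 4.82 FPKM in inhibitor cells, 5.33 and 5.98 in siRNA cells, 4.93 and 5.18 in siRNA controls, and 21.1 and 26.4 in inhibitor controls. Its inhibitor controls thus stood apart as those of FTH1 did. Against the siRNA controls none of the 53 was called with the inhibitor, where 0.0389% of all genes were called. At an unadjusted p under 0.05 there were 6, and 1599 of all 12846 genes. The 6 genes named above lay between -0.27 and 0.14.

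With the siRNA 2 of the 53 rose, 2 fell and 49 were not called (7.55% called, against 2.13% of all genes). The share of all genes called ran from 0.529% at 1 to 10 FPKM to 7.23% at 100 FPKM or more. In the alternative settings that kept every library, it ran from 0.0154% with no filter to 2.44% with robust variance. Whether the calls of the genes named here held in those settings was not tested. FECH, the ferrochelatase that puts iron into heme, fell by 0.62 (adjusted p = 0.0253), to 7.83 and 7.65 FPKM in siRNA cells, against 11.9 and 13.0 FPKM in siRNA controls. PGD fell by 0.69 (adjusted p = 0.0442). BLVRB, biliverdin reductase B, rose by 0.35 (adjusted p = 0.0279) and IDH1, a cytosolic NADPH-making dehydrogenase, by 0.32 (adjusted p = 0.0362). TXN2 (-0.47, adjusted p = 0.0552) and MGST3 (0.29, adjusted p = 0.0568) were next and were not called. SLC40A1, the iron exporter ferroportin, was listed at 0 together with GSTM3, NR0B1, SOD3 and FTMT, and GPX2 and ALDH3A1 were at 0.349 and 0.188 FPKM.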

How the data were processed

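Per the labels' protocols, HCT116 total RNA was made into stranded libraries and read on a HiSeq-2000. Per the file headers, the authors deposited one FPKM per gene from Cufflinks. The submitters' processing notes also name STAR 2.3.0e, SAMtools 0.1.19 and build hg19. The sources used here do not give the Cufflinks version, the annotation release or the use of strand, so overlapping and near-identical genes are uncertain. FPKM gives no read counts. The deposited bounds imply 2012000 to 6924000 fragments per run if they cover counting error alone, and the 6 highest values took 48.55% to 55.76% of a run's summed FPKM. For FTL, FTH1 and OSGIN1 the median distance of the deposited upper and lower bounds from the value was 1.65%, 7.08% and 34.6%. The authors' values were not log-transformed; log2 values were computed here.

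Each library's 2 runs were averaged as FPKM and count as 1 sample, and median-of-ratios factors of 0.878 to 1.092 scaled the libraries. Tests covered genes with a mean of at least 1 FPKM whose locus spans at least 300 bases (12846 genes, with 420 short genes removed) on log2(FPKM + 1), with a pseudocount of 1. Fold changes on this scale understate the change of low genes. All 8 libraries entered 1 fit with limma 3.58.1 (R 4.3.3; trend, two-sided, 4 residual and 5.04 prior degrees of freedom, Benjamini-Hochberg threshold 0.05), checked on simulated data. The members and lists were chosen with earlier results of these data known. Each member is given a value, and every library is given for members called with an absolute log2 difference of at least 0.5, for NFE2L2 and KEAP1, and for the 3 most abundant; AKR1A1, GCLM and HMOX1 were added after their values were seen. The alternatives were a pseudocount of 0.1, no filter, no scaling, quantile normalization, each run alone, the groups compared alone, robust variance, short genes kept, a replicate block and each library left out.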

Additional observations from a re-analysis of the deposited data

Results flagged for a closer look

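At 7 of 33 members (21.2%) the effect of the inhibitor differed from the effect of the siRNA, each against its own control. The share was 11.8% for all genes and 26.7% for genes at 100 FPKM or more. The test was limma's test of that difference, with Benjamini-Hochberg adjustment over all genes. With n = 2 libraries in each group, FTH1 was at -1.47 (adjusted p = 0.000357), NQO1 at 0.53 (0.00222), PRDX4 at 0.57 (0.00484), MGST1 at -0.72 (0.00577), AKR1B1 at -0.49 (0.00677), ABCC1 at -0.82 (0.0196) and UGDH at -0.50 (0.0381). Of 17 alternative settings the call of UGDH held in 5 and was lost with the replicate block among others, and that of ABCC1 held in 11. The inhibitor control libraries lay outside the range of the other 6 at FTH1, PRDX4, MGST1, AKR1B1, ABCC1, UGDH and NQO1. The tested difference includes these libraries, so it favours genes at which they stand apart. The inhibitor against the siRNA controls gave log2 differences of 0.0022 for FTH1, -0.25 for NQO1, -0.13 for PRDX4, 0.002 for MGST1, 0.0038 for AKR1B1, -0.17 for ABCC1 and -0.01 for UGDH, none of them called. A treatment effect and whatever else sets the inhibitor controls apart cannot be told apart.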

How the results depend on the processing

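Of 14 alternative settings, the FPKM as deposited moved the members called with the inhibitor against its own control to 8, from 20, and those called between the siRNA controls and the inhibitor controls to 11, from 19; fewer genes passed in general (24.2% and 28% of all genes). The 8 were FTH1, PRDX4, UGDH, MGST1, AKR1B1, NQO1, EPHX1 and ABCC1. With the siRNA, AKR1A1 lost its call and 0 members were called with no filter, the FPKM as deposited, or either run alone. The same held with only the groups compared, short genes kept or the replicate block. The share of all genes called in these settings was 0.0154% to 1.04%, against 2.13%. Quantile normalization or robust variance gave 2 members, adding TXN, with 2.14% and 2.44% of all genes called. The inhibitor against the siRNA controls gave 1 call with robust variance and 0 elsewhere. The difference between the effects was called at 3 members with no filter, against 7 (0.738% of all genes, against 11.8%). Leaving out 1 library gave 14 to 17 calls for the inhibitor, 0 to 1 for the siRNA (GCLM in place of AKR1A1 without siRNA control replicate 1), 0 for the inhibitor against the siRNA controls, 13 to 15 between the controls and 5 to 8 for the difference. A group left with 1 library was assumed to vary like the others. For the inhibitor, between the controls and for the difference, fewer of all genes also passed each time a library was left out. The causes were not tested.

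Same-numbered libraries did not deviate together (correlations of -0.098 to 0.048), so the numbers were not taken as pairs. With the replicate block the counts were 19 for the inhibitor, 0 for the siRNA and 0 for the inhibitor against the siRNA controls. Between the controls 17 were called, and 6 for the difference. The shares of all genes called were then 34.1%, 0.529%, 0.0389%, 35.6% and 9.13%, in the same order. No called member changed sign in any of these settings. The deposited bounds were widest, relative to the value, for the 6 untested members and then for OSGIN1 (34.6%) and EPHX1 (24.5%).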
